A study of Arabidopsis thaliana with 8 samples.

Results

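Binding of CGA1 to the chromatin of rosette leaves was described from 1918 ChIP-seq peaks of the Arabidopsis myc-CGA1 line. These are the nuclear peaks of the list of replicate 1 that overlapped a peak of the list of replicate 2 by at least 1 bp, and they make up 78.1% of the 2456 peaks of replicate 1. The same rule gave 6652 peaks for the whole series, the other 4734 belonging to the myc-GNC line. The plants overexpressed CGA1 with a c-myc tag in the Col-0 ecotype and were 3 weeks old, grown in soil under long days. Whole rosette leaves were cross-linked, and the sheared chromatin was precipitated with an anti-myc antibody (IP) or kept without antibody (INPUT), with 2 biological replicates of each. GNC, the other factor of the series, was tagged, overexpressed and processed in the same way. The IP of either line was set against INPUT chromatin, and an IP from plants without a tag was not analysed here. Overexpression brings the factor to cells and levels that the native gene need not reach, and whole leaves mix all leaf cell types.

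CGA1, also called GNL, is a GATA factor, a protein with a zinc finger that holds the short DNA word GATA. The gene is switched on by cytokinin and light. Together with its close relative GNC it is known for promoting chlorophyll formation and chloroplast division, for delaying flowering and senescence, and for acting downstream of gibberellin and auxin signalling. In ChIP-seq, DNA bound by the tagged protein is enriched in the IP, and the program MACS lists intervals, the peaks, where IP reads exceed INPUT reads. The score of a peak is −10 times the log10 of its p-value, so it measures how clearly the IP exceeded the INPUT and not how many molecules were bound. No score in the lists was under 50, the lower limit of the calls.

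The sequences below show what lay at the centre of the strongest promoter peaks in single-copy DNA, followed by peaks at SPCH, CRF2 and TT8, which are genes of stomatal development, cytokinin response and flavonoid synthesis. Each is 201 bp of TAIR10.1 centred on the peak and written 5′ to 3′ on the strand of the gene, with GATA, its reverse complement TATC and the related word GATC in capitals. The windows lie at chr1:5756181-5756381 (AT1G16800), chr2:18810961-18811161 (SOC1), chr5:21330022-21330222 (AT5G52550), chr2:15027283-15027483 (INT3), chr5:21589282-21589482 (SPCH), chr4:12375329-12375529 (CRF2) and chr4:6180992-6181192 (TT8). The genes of CRF2 and TT8 are on the plus strand and the other genes on the minus strand.
AT1G16800: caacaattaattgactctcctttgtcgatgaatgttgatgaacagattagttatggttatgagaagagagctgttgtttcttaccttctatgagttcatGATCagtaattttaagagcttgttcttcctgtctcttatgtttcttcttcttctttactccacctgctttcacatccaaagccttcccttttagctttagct
SOC1: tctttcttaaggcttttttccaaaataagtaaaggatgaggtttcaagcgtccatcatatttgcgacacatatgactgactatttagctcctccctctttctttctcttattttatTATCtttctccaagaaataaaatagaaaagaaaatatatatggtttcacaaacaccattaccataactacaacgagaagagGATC
AT5G52550: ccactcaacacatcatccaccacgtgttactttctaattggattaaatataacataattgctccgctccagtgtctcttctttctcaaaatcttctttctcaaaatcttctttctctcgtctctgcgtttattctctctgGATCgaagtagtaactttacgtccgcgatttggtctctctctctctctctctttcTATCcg
INT3: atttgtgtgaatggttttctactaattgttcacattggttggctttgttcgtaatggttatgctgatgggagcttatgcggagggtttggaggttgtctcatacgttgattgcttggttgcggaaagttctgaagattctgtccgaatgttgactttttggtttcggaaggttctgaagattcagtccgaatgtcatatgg
SPCH: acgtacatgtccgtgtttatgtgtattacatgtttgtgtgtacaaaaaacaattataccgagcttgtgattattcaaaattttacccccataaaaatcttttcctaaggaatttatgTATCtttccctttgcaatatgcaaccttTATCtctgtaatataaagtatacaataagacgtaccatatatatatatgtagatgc
CRF2: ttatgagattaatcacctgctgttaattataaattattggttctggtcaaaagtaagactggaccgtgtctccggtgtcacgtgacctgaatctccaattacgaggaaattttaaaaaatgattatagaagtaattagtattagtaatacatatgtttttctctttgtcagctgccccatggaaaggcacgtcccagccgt
TT8: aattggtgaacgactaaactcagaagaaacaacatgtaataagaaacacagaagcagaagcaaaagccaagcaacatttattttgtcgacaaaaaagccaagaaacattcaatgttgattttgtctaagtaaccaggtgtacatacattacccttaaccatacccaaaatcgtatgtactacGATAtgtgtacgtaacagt
The windows of INT3 and CRF2 contain neither word, although the INT3 peak was among the strongest. The SPCH window has GATA at 2 places and the TT8 window at 1 place, while SOC1 and AT5G52550 have each word once. AT1G16800 has only GATC. How common these words are in all peaks and in the genome is given further on.

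The lists of both replicates placed these peaks almost identically. Both edges were the same in 891 of the 1918 pairs, and in 92.3% of them (1771 pairs) each edge differed by 0 or 4 bp. For this reason the lists were handled as 1 sample, and their agreement was not read as replicate error. The median score was 66.4 in replicate 1, with quartiles of 57.4 and 80.0, and 65.3 in replicate 2, with quartiles of 56.8 and 80.2. Most peaks therefore lay close to the lower limit of the calls, and 25.2% of them scored under 60 in both lists. A score of at least 100 in both lists was reached by 146 peaks and one of at least 200 by only 6. Across peaks the scores of the lists went together (Pearson 0.856, Spearman 0.780, n = 1918 peaks that share libraries, given as a description). The median difference between the lists was 3.88, 240 peaks had exactly the same score, and in 8.65% the scores differed by over 20. Certain scores recurred: 321 peaks of replicate 1 carried a score seen in at least 5 peaks, such as 70.14 in 34 of them. Peaks found in a single list were weaker, with a median of 55.7 for the 538 peaks of replicate 1 and also for the 480 of replicate 2.

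**Figure D1:**
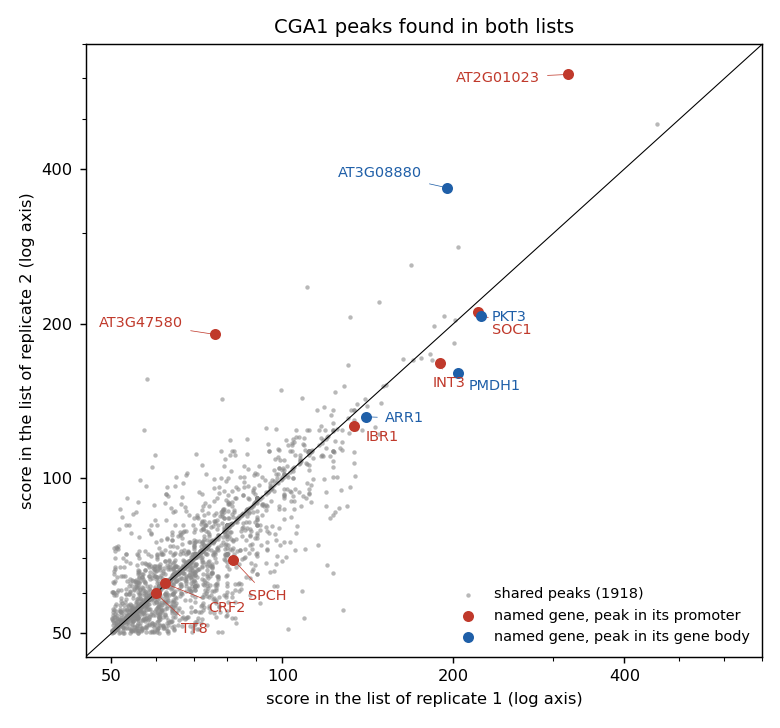
Score of each of the 1918 shared CGA1 peaks in the list of replicate 1 (horizontal, log axis) and of replicate 2 (vertical, log axis), with the line of equal scores. Each grey point is a peak, and the coloured points are named genes with the peak in the promoter (red) or in the gene body (blue). Most peaks crowd between 50 and 100 in both lists, while AT2G01023, AT3G08880 and AT3G47580 lie well above the line.

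Peaks were narrow and spread over all chromosomes. The median width was 409 bp (from 164 to 1089), and together the peaks covered 0.678% of the nuclear genome. Neighbouring centres lay a median of 39.6 kb apart, and 6.83% of the peaks had another one within 2 kb. Reads that matched several locations had been removed before the peaks were called, and in 98.7% of the peaks all 50-mers of the 150 bp on each side of the centre occurred once in the nuclear genome.

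Promoters held more of the peaks than their share of the genome, and the space between genes held fewer. The promoter was taken as 1 kb upstream to 100 bp downstream of the transcription start site (TSS) of a protein-coding gene. The centres of 565 peaks, 29.5% (95% Wilson interval 27.5 to 31.5, counting error only), lay in such a window, against 23.2% of the nuclear genome, a ratio of 1.27. Another 912 peaks, 47.5% (45.3 to 49.8), were centred elsewhere in a gene, where the genome share was 44.9%. The remaining 441 peaks, 23.0% (21.2 to 24.9), lay outside both, against 31.9% of the genome. With the promoter cut at 500 bp upstream the share was 17.3% against 13.0% of the genome, a ratio of 1.33. With the windows of all annotated nuclear genes it was 35.2% against 30.5%, a ratio of 1.15. All these genome shares count every nuclear base, including repeated DNA where reads with several locations had been removed. Shares of the single-copy genome were not computed, so the ratios hold for the whole nuclear genome only.

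**Figure D2:**
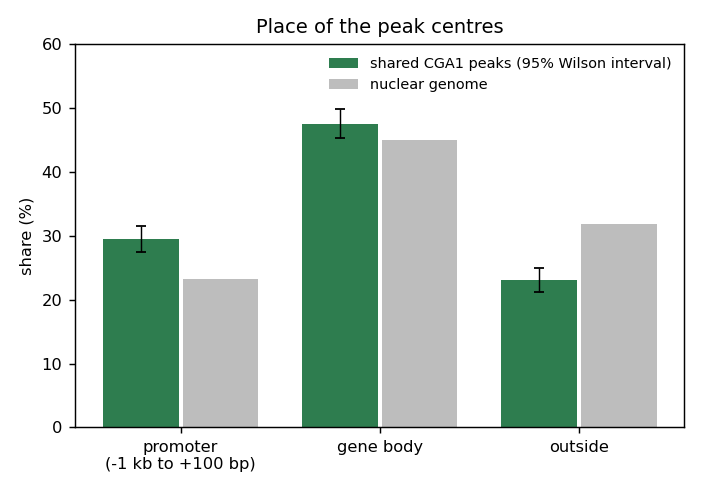
Share of the shared CGA1 peaks (green, with 95% Wilson intervals of 1918 peaks) and of the nuclear genome (grey) in promoters, in gene bodies and outside both, in percent. The promoter bar of 29.5% stands above the genome bar of 23.2%, and the outside bar of 23.0% below that of 31.9%. The genome bars count every nuclear base, including repeated DNA where reads with several locations had been removed.

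Within promoters the peaks were not confined to the start site. Between 84 and 111 peaks fell into each 200 bp step of the upstream 1 kb, with 111 in the step next to the TSS and 64 in the 100 bp downstream of it. Within gene bodies, 399 peaks were centred in coding exons, 328 in introns, 95 in 3′ UTRs and 67 in 5′ UTRs. Along the gene they were nearly even. Of 928 pairs of a peak and a gene, 26.9%, 24.7%, 23.7% and 24.7% lay in 4 successive parts of equal length from the TSS. Centres in the promoter window of any gene were left out of these pairs. The first part therefore lacks the 100 bp next to the TSS, and every part lacks any stretch in the promoter window of another gene. Body-bound genes were long, with a median of 2.89 kb against 2.08 kb for all protein-coding genes, and a longer gene offers more room for a centre. Promoter-bound genes had the same median length as all genes, 2.08 kb. Scores did not separate the classes: the medians were 66.0 and 65.4 in promoters, 67.1 and 65.2 in gene bodies, and 65.2 in both lists outside.

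CGA1 was bound at the promoters of 616 of 27444 protein-coding genes, or 2.24%, and inside the bodies of 1030 genes, or 3.75%. Either kind of peak was found at 1621 genes (5.91%), which is the background for every list below. Both kinds were found at 25 genes, and no background was computed for this count. A promoter peak often cannot be tied to 1 gene, since 53 peaks lay in the windows of a pair of genes and 131 also lay inside another gene. At 46 promoter-bound and 72 body-bound genes the best peak scored at least 100 in both lists.

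The strongest promoter peaks belonged to genes of varied function. SOC1 (AT2G45660, named AGL20 in the annotation), a MADS-box factor that integrates flowering signals, had a peak at chr2:18810877-18811246 that scored 221 and 210, and its centre was 64 bp past the start site. A second, far weaker SOC1 peak with 53.2 in both lists lay 2861 bp downstream of the TSS, inside the gene. A peak with 200 and 183 lay between the diverging genes AT5G52550 and USP, which encodes the UDP-sugar pyrophosphorylase that makes nucleotide sugars. It was centred 14 bp downstream of the first TSS and 486 bp upstream of that of USP. INT3, a member of the inositol transporter family, scored 189 and 167 at a centre 757 bp upstream. These peaks had similar scores in both lists.

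Larger differences between the lists were seen at other leading promoters. AT2G01023, an uncharacterised gene near the ribosomal RNA genes at the start of chromosome 2, had the highest scores of all promoters with 318 and 611. GNC had a peak there as well, with 556 and 646, and only 90.5% of its 50-mers were single-copy. AT1G16800 scored 204 and 282, with a centre 813 bp upstream of its TSS that is also in a coding exon of its neighbour AT1G16810. AT3G47580, a leucine-rich repeat kinase gene, scored 76.0 in replicate 1 and 191 in replicate 2. In replicate 1 the score of AT3G47580 thus lay between the median of 66.4 and the upper quartile of 80.0, while in replicate 2 it was among the strongest.

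The rest of the 15 leading promoters scored between 124 and 166 in both lists. AT1G35560, a TCP factor gene, had 130 and 166 at 25 bp downstream of the TSS. A peak with 149 and 140 lay upstream of both AT5G67510 and APK4, an APS kinase of sulphate assimilation. CPK9, a calcium-dependent protein kinase, had 129 and 152. The remaining genes were AT1G77290 of the glutathione S-transferase family, AT3G17100 for a DNA-binding factor, AT5G54340 for a zinc finger protein and AT5G64130. Their centres ranged from 280 to 990 bp upstream.

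Gene bodies held peaks as strong as those of promoters. AT3G08880, annotated as a plectin-like protein, led with 194 and 368 at chr3:2704033-2704703, in the 3′ UTR. PKT3, a peroxisomal thiolase of fatty acid β-oxidation, scored 224 and 207 in the 5′ UTR, 296 bp downstream of the TSS. PMDH1, the peroxisomal malate dehydrogenase, scored 204 and 160 in the 3′ UTR.

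Introns and exons each appear among the other strong bodies. AT1G77660 scored 201 and 203 in an intron, AT4G02660, a BEACH and WD40 domain gene, 185 and 198 in an intron 8735 bp from the TSS, and AT4G38980 163 and 170 in an intron. THO5, a subunit of the THO complex of mRNA export, had 182 and 175 in a coding exon. AT2G31820, an ankyrin repeat gene, had 183 and 170. AT2G35380, a peroxidase gene, had 111 in replicate 1 and 236 in replicate 2, and GNC peaks of 58.8 and 61.1 overlapped it.

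The peak with the highest mean of both scores was assigned to no protein-coding gene. It lay at chr5:20547822-20548869 with scores of 457 and 489, 2.79 kb downstream of AT5G50460, in single-copy DNA. A peak with 168 and 261 lay 1.48 kb upstream of AT3G17850 and 22 bp from a long non-coding RNA gene, AT3G03555. Of the 441 peaks outside promoters and bodies, 100 (22.7%) lay in another type of gene or in its promoter window. That window had the same limits as for protein-coding genes. Most often the gene was a pseudogene (58) or a long non-coding RNA gene (36). None was at a tRNA gene. The genome share of these genes and windows was not computed, so the counts are not called high or low.

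Genes of pathways linked to CGA1 were bound across all 13 lists, with few members in each. Of 362 genes in the lists together, 22 (6.08%) had a promoter peak and 23 (6.35%) a body peak, in all 44 (12.2%) against the background of 5.91%. The lists were written with the bound genes of the study in view. Neither this share, nor that of a single list, nor bound genes in all 13 lists is therefore independent evidence. Most of the bound members had modest scores: only 3 of the 44 had a peak of at least 100 in both lists, namely SOC1, ARR1 and IAA26.

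**Figure D3:**
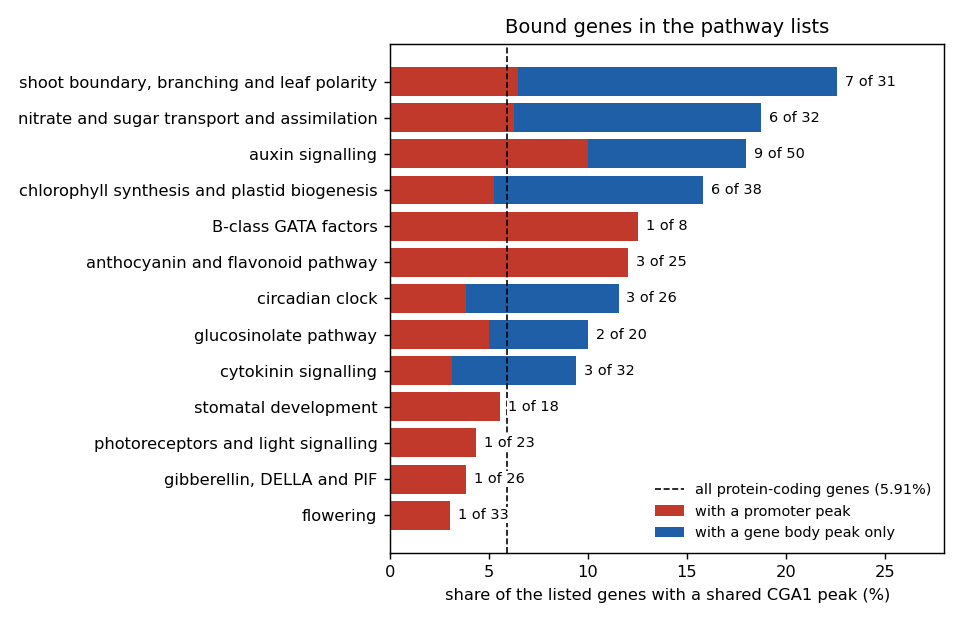
Share of the genes of each pathway list that had a shared CGA1 peak, in percent, with the number of bound and listed genes at the end of each bar. Red marks genes with a promoter peak and blue genes with only a body peak; the dashed line is the 5.91% of all protein-coding genes. The lists range from 1 of 33 flowering genes to 7 of 31 genes of shoot boundaries, branching and leaf polarity. They were written with the bound genes of the study in view, so the bars are not independent evidence.

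Among hormone genes, peaks were found from receptor to response factor. In cytokinin signalling 3 of 32 genes were bound. ARR1, a type-B response regulator that activates cytokinin response genes, had 141 and 132 in an exon 811 bp from the TSS. CRF2, a cytokinin response factor of the AP2/ERF family, had a weak promoter peak with 62.1 and 62.5, centred 693 bp upstream in the sequence printed above. A GNC peak with 94.0 and 69.5 overlapped it. ARR16, a type-A response regulator, had 55.7 and 58.6 in its 3′ UTR. No histidine kinase receptor of the list was bound.

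In auxin signalling 9 of 50 genes were bound, 5 at the promoter and 4 in the body. IAA26, one of the Aux/IAA repressors, had the strongest peak of the list with 105 and 118 at 803 bp upstream. ARF1, a repressing auxin response factor, had 95.4 and 90.3 in an intron. IAA34 had 70.7 and 84.1 in a coding exon, and AFB5, an auxin receptor of the F-box type, 70.1 and 63.0 at its promoter. The other 5 genes, IAA6, IAA19, IAA31, ARF9 and ARF10, scored between 51.9 and 64.3. Aux/IAA genes made up 5 of the 9, and their share of the 50 listed genes was not counted.

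Gibberellin and light signalling were represented by 1 gene each. PIF1, a phytochrome-interacting bHLH factor that holds back chlorophyll synthesis in the dark, had 70.1 and 71.2 at 78 bp downstream of the TSS and was the only one of 26 gibberellin, DELLA and PIF genes. SPA1, a partner of the COP1 ubiquitin ligase, had 57.4 and 56.5 at 51 bp upstream and was the only one of 23 light signalling genes. With 1 gene in each, nothing is read from these shares. In the circadian clock 3 of 26 genes were bound. CDF2, a Dof repressor of CONSTANS, had 85.0 and 77.2 in the 5′ UTR, RVE2, a MYB-like clock factor, 80.0 and 81.2 at 159 bp upstream, and LHY, a core clock repressor, 70.1 and 64.8 in the 3′ UTR.

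Developmental genes were bound at promoters as well as inside genes. SOC1 was the only one of 33 flowering genes with a peak. SPCH, the bHLH factor that starts the stomatal lineage, was the only one of 18 stomatal genes, with 81.9 and 69.4 at chr5:21589198-21589566, 127 bp upstream of the TSS. Of 31 genes of shoot boundaries, branching and leaf polarity, 7 were bound (22.6%), 5 of them in the body. BRC1, a TCP repressor of branching, had 101 and 75.3 in a coding exon. CUC3, a NAC factor of organ boundaries, had 90.2 and 81.2 at 439 bp upstream. TCP5 had 67.8 and 86.3 and the homeobox gene KNAT1 70.1 and 71.2, both in introns. The polarity genes REV, YAB3 and YAB2 lay between 53.6 and 65.5.

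In the lists of pigments and defence compounds, the bound genes were regulators. How many of the listed genes are regulators was not counted. Of 25 anthocyanin and flavonoid genes 3 were bound, all at the promoter and all for transcription factors. TT16, a MADS-box factor of seed coat pigmentation, had 95.1 and 97.9, TT8, a bHLH factor of the flavonoid pathway, 59.8 in both lists, and MYB90, an activator of anthocyanin synthesis, 54.5 and 55.2. Among 20 glucosinolate genes the factors MYB122 (66.8 and 65.4, promoter) and MYB76 (59.6 and 67.5, 5′ UTR) were bound.

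In the list closest to greening, chlorophyll synthesis and plastid biogenesis, 6 of 38 genes were bound (15.8%). Magnesium chelatase, which starts the chlorophyll branch of tetrapyrrole synthesis, was represented by all its kinds of subunit. GUN5, the H subunit, had 73.4 and 73.7 in a coding exon, CHLI2 77.0 and 64.7 at 18 bp downstream of the TSS, and CHLD 73.7 and 64.6 in the 3′ UTR. TIC40 (110 and 73.0) and TOC120 (91.8 and 74.1), parts of the machinery that imports proteins into chloroplasts, had intron peaks. CLB6, an enzyme of the plastid isoprenoid pathway named HDR in the annotation, had 73.5 and 73.1 at 363 bp upstream. Only CHLI2 and CLB6 were bound at the promoter.

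Of 32 genes of nitrate and sugar transport and assimilation 6 were bound. SWEET11, a sucrose exporter of the leaf, had 94.6 and 113 in a coding exon, where GNC also had a peak. The sucrose transporter SUC3 had 78.6 and 86.8, and the sugar transporter ERD6 75.7 in both lists at 108 bp downstream of the TSS, in the 5′ UTR. STP9, a hexose carrier, had 82.4 and 60.8 at its promoter. NIR1, the nitrite reductase, had 70.1 and 58.8 in a coding exon, and NRT2.3, a nitrate transporter, 51.3 and 51.7 at its promoter, close to the limit of the calls. Among 8 B-class GATA genes, the family of CGA1 itself, GATA23 was the only one bound, with 64.4 and 67.4 at 236 bp upstream.

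DNA-binding families as a whole were bound about as often as other genes. Of 1191 genes in these families, 37 (3.11%) had a promoter peak, against 2.24% of all genes, and 31 a body peak, a share below the 3.75% of all genes, so that 66 (5.54%) had either kind, against 5.91%. The families come from a search of words in the gene descriptions, so genes that only share a word with a family are counted in it. TCP factors had 4 of 23 (17.4%): AT1G35560, BRC1, TCP5 and TCP20. Homeobox and homeodomain-like genes had 17 of 208 (8.17%), led by ETC2, a small MYB-like repressor of trichome formation, with 96.6 and 97.0. None of the 43 genes found by the words for Dof and B-box factors had a peak, but CDF2 was not among those 43.

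Single members stood out in several families with shares near the background. Among MYB factors, 9 of 160, MYB96, a regulator of wax synthesis under drought, had 104 and 105 at its promoter and MYB64 105 in both lists in its body. MYB108 had a pair of body peaks, the better with 85.7 and 101. Among WRKY factors, 5 of 73, WRKY11 had 111 and 113 and WRKY40 88.0 and 79.0, both regulators of defence with the peak at the promoter. NAC095, of 4 bound among 108 NAC genes, had 128 in replicate 1 and 55.4 in replicate 2. In the bHLH family, 8 of 136, AT5G56960 led with 90.2 and 91.5, and in the bZIP family, 4 of 68, bZIP5 with the same 90.2 and 91.5. In the AP2/ERF list 7 of 157 genes were bound, but DRIP2 of these is a ubiquitin ligase, and AT1G49475, AT3G19184 and AT5G57720 are described as AP2/B3-like and counted in the B3 list as well. In the B3 list 4 of 97 were bound, in the C2H2 zinc finger list 4 of 94 and in the LBD list 2 of 41. SE (SERRATE), a C2H2 protein of microRNA processing, had 97.6 and 61.9, and LBD29, a factor of lateral root formation, had 70.1 and 61.7 at its promoter. In the MADS-box family, 5 of 120, AGL94 had 84.8 in both lists behind SOC1 and TT16.

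Other families were signalling proteins, ligases and enzymes. The words for kinases found 1001 genes, of which 74 were bound (7.39%), 26 at the promoter and 50 in the body, led by CPK9. Most of the 74 are annotated as protein kinases, but kinases of lipids, inositol phosphates and sugars (PIP5K6, ATPI4K ALPHA, LCBK2, AT4G08170 and AT2G31390) and the cyclin CYCA3;2 are among them. AT2G25790, a receptor-like kinase, had 124 and 147, and AT1G70110, a lectin receptor kinase, 134 and 130. The words for NB-LRR resistance genes gave 16 of 194 (8.25%), among them ESB1 and AT5G25020, which are no NB-LRR genes, with AT4G08450 at 134 and 107 in its body and AT1G63750 at 118 and 111 at its promoter. BTB genes had 4 of 48, among them ABAP1 with 132 and 96.3 and BPM5 with 126 and 87.6. F-box genes had 36 of 653 (5.51%) and RING and U-box genes 22 of 430 (5.12%), led by AT3G22720 with 117 in both lists and AT1G53190 with 113 and 114. Protein phosphatases had 12 of 121 (9.92%), among them TOPP4 with 96.5 and 66.1 at its promoter. Cytochrome P450 genes had 13 of 248, led by CYP704A1 with 109 and 92.6.

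Families of photosynthesis and of basic growth followed. Photosystem and light-harvesting genes had 4 of 68 (5.88%), about the background of 5.91%, namely PSAH-1 (77.0 and 64.4), AT1G77090, AT2G28605 and LHCB2.3 (57.9 and 53.1). Ribosomal protein genes had 15 of 344 (4.36%) and defensin-like genes 6 of 193 (3.11%). Cell wall genes had 23 of 470 (4.89%), with EXPA13, an expansin, at 104 and 103, and transporters 24 of 537 (4.47%), led by INT3. Heat shock and chaperone genes had 13 of 262 (4.96%), led by CR88, a chloroplast Hsp90 chaperone, with 84.6 and 79.2. The histone word list gave 5 of 52, but its leading member AT1G77660 is not a histone, and the histone H2A gene HTA10 had 80.2 and 90.1. SAUR genes of the auxin response had 4 of 79, of which SAUR15 and AT4G38840 shared a promoter peak with 73.3 and 102.

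Some genes that the study names had no shared peak. No peak of either CGA1 list lay at GNC or at CGA1 itself, and the nearest shared peaks were 15.7 and 28.4 kb away. The study reports CGA1 at the GNC promoter from quantitative PCR of ChIP DNA, an assay separate from these peak lists. In the GNC lists, peaks with 74.9 and 82.0 lay in the CGA1 gene. CHL-CPN10 (AT2G44650), a chloroplast co-chaperonin, had a peak only in the list of replicate 2, with 53.0 at 25 bp upstream. ACT7, an actin gene whose promoter served the study as a negative control, had none, the nearest shared peak being 41.8 kb away. Others were bound. IBR1 (AT4G05530), an enzyme that converts indole-3-butyric acid to auxin, had 134 and 126 at its promoter. The GRAS factor HAM4 (AT4G36710) had 123 and 124 at 802 bp upstream. AT3G17100 had 141 and 139, CYP71B23 (AT3G26210) 72.7 and 74.1, and SAUR70 (AT5G20810) 54.9 and 56.0 at 300 bp upstream. With both GNC lists counted, 2 peaks lay in or up to 1 kb upstream of HAM4, 2 at SAUR70, and 0 at IBR1, AT3G17100 and CYP71B23. A site present in both lists counts as 2 here. No GNC peak found in both lists overlapped the shared CGA1 peaks of HAM4 and SAUR70. The study, which used promoter peaks only, reports SAUR70 as detected in its CGA1 data alone.

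The word GATA was about as common in the peaks as in the genome. At least 1 GATA on either strand was found within 150 bp of the centre in 92.5% of the peaks (91.2 to 93.6) and in 91.1% of 395093 windows of that length that tile the nuclear genome. For GATC, which reads the same on both strands, the shares were 61.9% (59.7 to 64.0) and 62.7%. Either word was in 97.1% (96.2 to 97.7), against 96.8% of the genome windows and 95.7% of windows centred on a TSS. Short words are thus present in nearly any window, and 56 peaks had neither. The peaks had a mean of 2.79 GATA words, against 2.61 per genome window, a ratio of 1.07.

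Over all peaks, longer and other words gave small differences from the genome windows, while GATAAG differed more in the peaks with high scores. GATAAG, which contains GATA, was in 16.9% of the peaks (15.3 to 18.6) and in 15.2% of the genome windows. It was in 25.3% of the 146 peaks with scores of at least 100 in both lists. GATA itself was in 89.7% of these 146 peaks and GATC in 67.8%. The E-box word CANNTG was in 66.5% (64.4 to 68.6) against 67.2%, and the G-box word CACGTG, an E-box too, in 4.33% (3.50 to 5.33) against 3.27%, and in 7.58% of the TSS windows. GAGAGA was in 28.3% (26.3 to 30.3) against 24.5%, and in 42.6% of the TSS windows. GGNCCCAC, a word held by TCP factors, was in 0.730% (0.435 to 1.22) against 0.688%. All but the palindromes were searched on both strands. Base composition moved with place: the median GC content was 34.9% in the peaks and 36.5% in the genome windows, and it was 32.9% in promoter peaks and 37.2% in body peaks. Its part in the word shares was not tested.

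Around the centres the density of GATA and GATC was nearly flat. GATA occurred 9.37 times per kb within 150 bp of the centre and 8.93 times per kb from 500 to 1000 bp away, a ratio of 1.05. For GATC the values were 3.47 and 3.50 per kb. GAGAGA occurred 1.73 times per kb near the centre and 1.48 times away from it, a ratio of 1.17, and CACGTG 0.160 and 0.141 times, a ratio of 1.13, while CANNTG had 3.90 and 3.92. Since the lists give no summits, the midpoint of the interval stood for the summit.

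**Figure D4:**
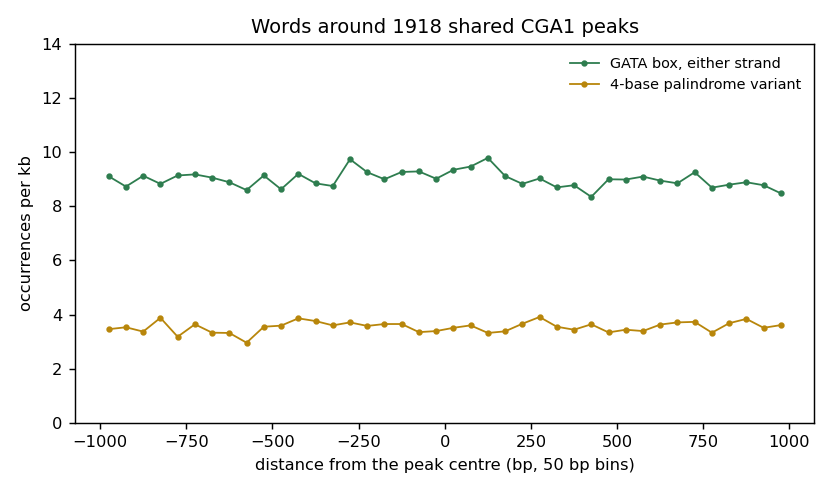
Occurrences per kb of the GATA box on either strand (green) and of its 4-base palindrome variant GATC (gold) in 50 bp bins from 1000 bp before to 1000 bp after the centres of 1918 shared CGA1 peaks. Both lines are nearly flat, with 9.37 GATA per kb within 150 bp of the centre and 8.93 beyond 500 bp.

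Overlap with GNC was counted next. Of the 1918 peaks, 99 (5.16%, 4.26 to 6.24) overlapped a peak found in both GNC lists, which is 2.09% of the 4734 GNC peaks. No background was computed for this overlap of peaks, so it is not called high or low. The share was 5.31% in promoters, 4.82% in gene bodies and 5.67% outside. Of promoter-bound genes, 38 were bound in both lines, 6.17% of the 616 CGA1 genes and 2.59% of the 1466 GNC genes. Of all protein-coding genes, 5.34% were promoter-bound by GNC and 2.24% by CGA1, so these shares of genes lay close to the background of the other line. The peaks that overlapped GNC had median CGA1 scores of 68.4 and 65.2, near the 66.2 and 65.3 of the others. After AT2G01023, AT2G35380 and AT3G47580, the strongest CGA1 peaks at such places were in the body of CCoAOMT1, a methyltransferase of lignin synthesis, with 134 and 128 (GNC 158 and 149), and at the promoter of AT3G23470 with 117 and 127. SUVH2, a factor of DNA methylation, followed with a promoter peak of 101 and 119. Among the 146 peaks with scores of at least 100 in both lists, 6 (4.11%) overlapped a GNC peak.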

How the data were processed

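Trimmed reads were aligned by the authors to TAIR10 using Bowtie2 (2.2.6 in the labels' processing notes), reads with several locations were dropped, and MACS called peaks per replicate. The deposited lists hold intervals and a score, −10 × log10 of the peak's p-value, and give neither read counts nor an error for it, so depth cannot be taken from them. Titles were followed where descriptions of the CGA1 INPUT samples name GNC lists. Centres were placed on the TAIR10.1 annotation, whose nuclear chromosomes contain all peaks. Members and gene lists were chosen with earlier results of these data known. Pathway lists use symbols (13 names were set to loci by hand), and family lists use words in product names. Named genes are the 15 promoter-bound and 10 body-bound genes with the highest mean score, bound list members (at most 4 per pathway, 3 per family, others by range), and genes the study names; a few other list members were named after their values were seen. Intervals are 95% Wilson intervals, and no test was made. Overlap, gene assignment and word counting were tested on simulated data. Python 3.11.15, numpy 2.4.6, scipy 1.17.1 and matplotlib 3.10.9 were used. Alternatives were a score of 100, other overlap, promoter, gene and window rules, and each list alone.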

Additional observations from a re-analysis of the deposited data

How the results depend on the processing

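With a score of at least 100 in both lists, the promoter-bound genes fell to 46, the body-bound genes to 72 and the bound pathway genes to 3, the median scores were 118 and 117, the word share was 94.5%, the GNC overlap 4.11% and the median of promoter peaks minus that of the others in replicate 1 was -3.38. With the promoter cut at 500 bp the promoter share was 17.3% and 351 genes were promoter-bound, 8 of the 15 leading ones among them. All annotated genes gave a promoter share of 35.2%, any overlap of the interval 39.2%, and words within 100 bp of the centre 91.3%. With either list alone the medians were 62.9 (replicate 1) and 62.5 (replicate 2), the promoter share 28.5% and 29.5%, promoter-bound genes 766 and 775, and body-bound genes 1388 and 1325. The GNC overlap alternatives were chosen after seeing the data. In 52 of 67 comparisons the value stayed within its interval or within 1.5 times. For single lists and leading genes 86 of 102 counts stayed within 1.5 times, and 14 of the other 16 were lower, 13 of them at a score of 100. The cause was not tested. The lists give no depth, so weak peaks cannot be told from absent ones. No paired analysis was possible because the lists count as 1 sample and no result comes from a test across samples.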
